A study of Mus musculus with 18 samples.

Results

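The cytochrome P450 genes of families 1 to 3 were examined in mouse liver tumors. They were the protein-coding genes whose symbol is Cyp1, Cyp2 or Cyp3 followed by 1 letter and a number, 58 of the 43346 genes (22032 of them protein-coding) in the deposited tumor table. Another 4 protein-coding genes carry a further letter or suffix in their symbol and were left out by that rule. All 58 were found by name, without regard to their levels.

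P450 enzymes are heme proteins of the endoplasmic reticulum that insert an oxygen atom into a substrate with electrons passed on by P450 oxidoreductase. In liver, families 1 to 3 clear drugs and pollutants and also hydroxylate steroids, bile acids and fatty acids. Hepatocytes hold most of them, more on the pericentral than on the periportal side of the lobule. Their transcription is set by liver-enriched factors such as HNF4A and by the xenobiotic receptors AHR, CAR and PXR.

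The tumors were nodules from mice given activated AKT (myr-AKT) with a mutant YAP, the transcriptional coactivator held back by the Hippo pathway. In YAP-SY the YAP form was S127A/Y357F, and in YAP-S it was S127A alone. S127A removes a phosphorylation site that keeps YAP out of the nucleus, and Y357F removes a tyrosine that can be phosphorylated. Each model gave 3 nodules labelled CCA (cholangiocarcinoma) and 3 labelled mixed, so the 12 tumors formed 4 groups of 3: YAP-SY CCA (1, 6 and 8), YAP-S CCA (3, 4 and 5), YAP-SY mixed (3, 5 and 9) and YAP-S mixed (2, 7 and 9). All 4 groups carried myr-AKT; strain, age, promoter and method of gene delivery were not given in the sources used here, and normal liver was not analysed here. RNA of SB1, a cell line whose genotype label is that of YAP-S CCA, was read in 3 samples; SY1 cells were not analysed here. The labels do not say whether the nodules of a group came from separate animals, so p-values measure only the spread between these nodules, which may be technical.

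Total counts per tumor ran from 30656499 to 130035221. Levels are CPM, counts scaled to 1e+06 per TMM-scaled library, and tests are edgeR's quasi-likelihood F-test with Benjamini-Hochberg adjustment over the 18318 genes that passed a filter on low counts. Of the 58 P450 genes, 50 passed. The other 8 (Cyp2b13, Cyp2b19, Cyp2b23, Cyp2j7, Cyp2j11, Cyp2j12, Cyp2t4 and Cyp2w1) held 0 to 24 counts over all 12 tumors together, and Cyp2t4 and Cyp2w1 were at 0 in every tumor. Many P450 genes are near copies of a neighbour: in 28 of the 58, at least 10% of the 50-base stretches of the transcript also occur in another gene, so their reads may have been split between copies. In bulk RNA, fewer cells of a type and less RNA per cell cannot be told apart.

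The labels were set beside a liver and a bile duct transcript. Albumin (Alb) had 103052, 114473 and 98823 CPM in YAP-SY CCA tumors, against 38253, 38759 and 33888 CPM in YAP-S CCA tumors. In the mixed tumors it had 80602, 64340.1 and 65613 CPM in YAP-SY and 54174, 63689 and 59283 CPM in YAP-S. Keratin 19 (Krt19), a bile duct keratin, had 15.6, 2.52 and 1.45 CPM in YAP-SY CCA tumors, against 56.7, 88.4 and 35.8 CPM in YAP-S CCA tumors. In the mixed tumors it had 37.6, 3.94 and 43.2 CPM in YAP-SY and 4.72, 29.2 and 40.5 CPM in YAP-S, which overlapped. The YAP-SY nodules labelled CCA were thus the highest of the 4 groups in albumin, and all 3 lay below every YAP-S CCA nodule in Krt19.

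P450 transcripts of these families made up 2.08, 2.57 and 2.23% of all counts in YAP-SY CCA tumors 1, 6 and 8, against 1.34, 1.52 and 1.08% in YAP-S CCA tumors 3, 4 and 5. In mixed tumors the shares were 1.96, 1.33 and 2.15% in YAP-SY and 1.51, 1.33 and 1.67% in YAP-S. The CCA groups did not overlap, while the mixed groups did. Per kilobase of the deposited gene length the order was led by Cyp2e1, which oxidises ethanol and acetaminophen. Its mean was 2552 CPM per kilobase over the 12 tumors. It was followed by Cyp3a11, the main drug-clearing Cyp3a enzyme of mouse liver, at 1656 CPM per kilobase, and by the steroid hydroxylase Cyp2d9 at 605 CPM per kilobase. Each of these stood above the next in all 12 tumors. By this length the following pair, Cyp2f2 at 455 and Cyp2c29 at 448 CPM per kilobase, did not differ beyond their spread. Cyp2f2 was the higher one in 6 of 12 tumors. The deposited length of Cyp2c29 is 3061 bases, while its longest coding transcript has 1783. For Cyp2f2 these are 2025 and 1866 bases, and for Cyp2d9 1651 and 1712. The order below Cyp3a11 thus depends on the length used.

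**Figure D1:**
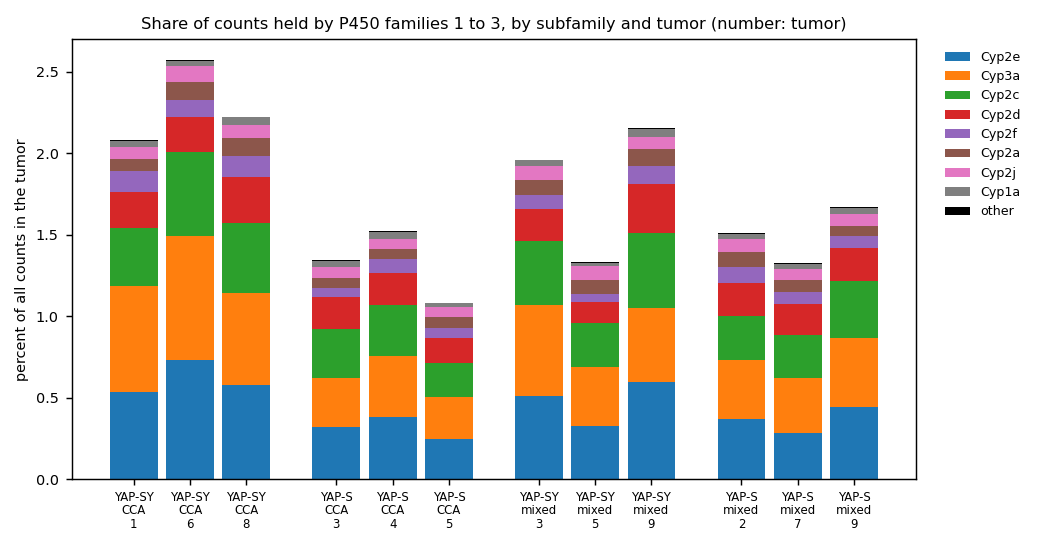
Percent of all counts in each tumor (y axis) held by P450 genes of families 1 to 3, stacked by subfamily, for the 12 tumors (x axis, labelled by group and tumor number). YAP-SY CCA tumors sit at 2.08 to 2.57% and YAP-S CCA tumors at 1.08 to 1.52%, with Cyp2e, Cyp3a and Cyp2c as the widest bands in every tumor.

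In CCA tumors, P450 transcripts were higher with YAP-SY than with YAP-S. Of the 50 genes tested, 36 rose and 2 fell at an adjusted p under 0.05, while of all genes tested 18.3% rose and 20.8% fell (39.1% in either direction). An unadjusted p under 0.05 was reached by 41, beside 48.1% of all genes. Their median log2 fold change was 1.28, beside 0.00 over all tested genes. The 3 YAP-SY tumors lay wholly above the 3 YAP-S tumors for 38 of the 50 and wholly below for 2, and over all genes these shares were 24.3% and 28.3% (52.6% in either direction). Summed over all 58 genes, the level was 28311 ± 4276 CPM in YAP-SY CCA tumors, against 11040.2 ± 2481 CPM in YAP-S CCA tumors (SD, n = 3 each). Hepatocyte markers rose too (12 of 15), and as a percent of their summed level the P450 total overlapped between these groups.

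The calls rest in part on how libraries were scaled. TMM factors were 0.775 to 0.832 in YAP-SY CCA tumors and 1.14 to 1.30 in YAP-S CCA tumors. With library size alone, the median of all genes moved to -0.56, the members' median was 0.72, and 25 members rose and 2 fell, against 760 genes higher and 8064 lower of all those tested. Of the 38 calls, 10 were lost when 1 tumor or another was left out; 30 stood without YAP-SY tumor 6, 30 without YAP-S tumor 5, and 26 of the 38 held under every setting run.

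**Figure D2:**
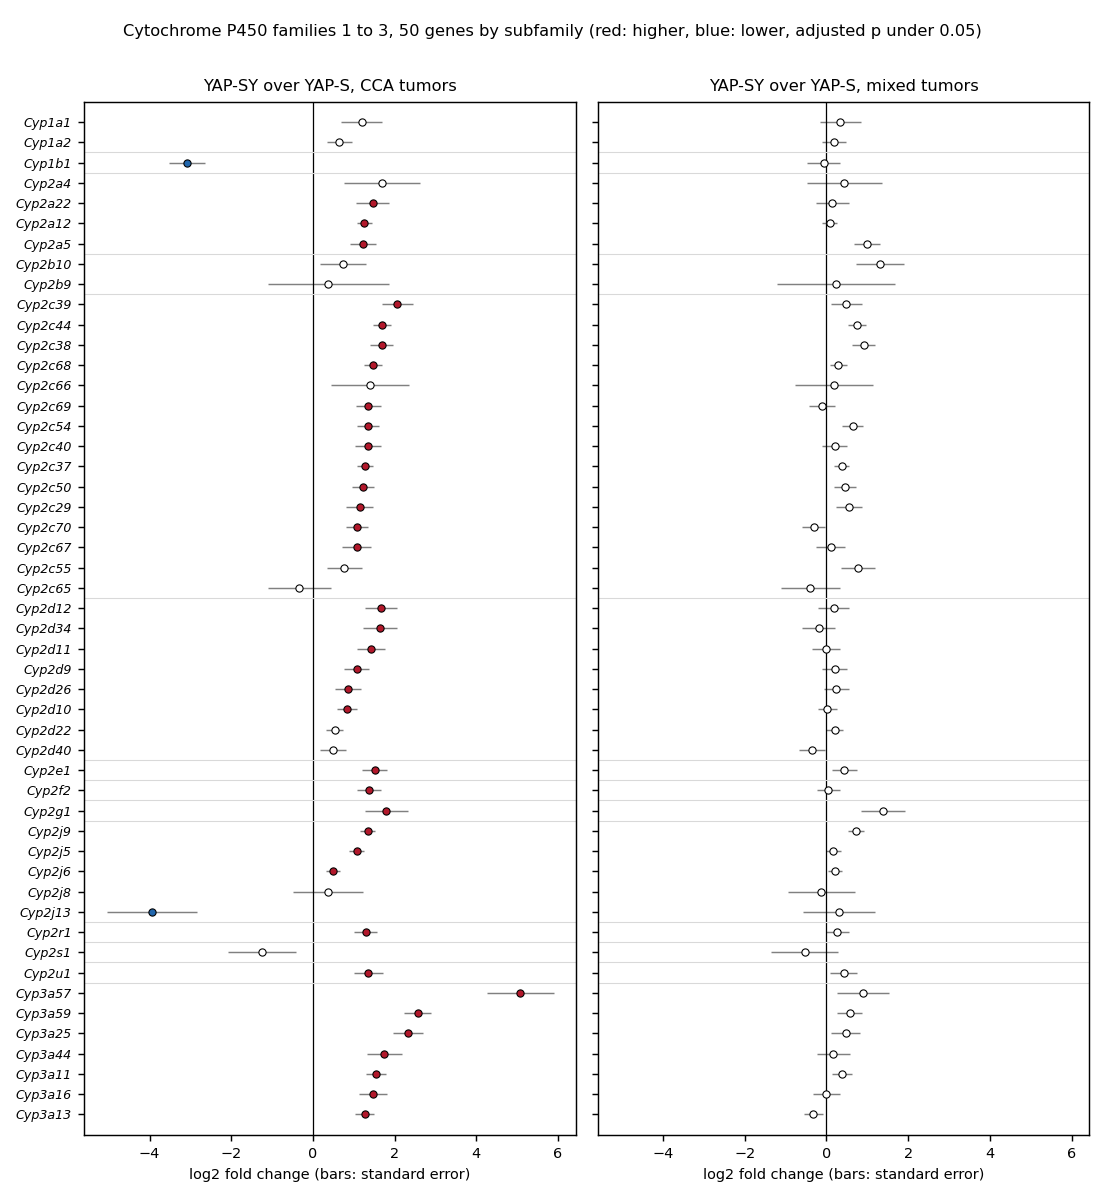
Log2 fold change of YAP-SY over YAP-S (x axis, bars: standard error) for the 50 tested P450 genes (y axis, grouped by subfamily), in CCA tumors (left) and mixed tumors (right). Filled points passed an adjusted p of 0.05: 36 higher and 2 lower in CCA tumors, and none of 50 in mixed tumors.

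The Cyp3a subfamily, which oxidises a wide range of drugs and steroids, rose in all its tested members. These 7 genes had log2 fold changes of 1.27 to 5.08 and a median of 1.75 in YAP-SY against YAP-S CCA tumors, and all 7 stayed called under library size alone and with any 1 tumor left out. Cyp3a11 had 6672, 7236 and 5385 CPM in the YAP-SY CCA tumors, against 2125, 2817 and 1698 CPM in the YAP-S CCA tumors (ENSMUSG00000056035, chr5:145854426-145879964 on the mm10 minus strand). The log2 fold change was 1.54 ± 0.25 (SE) at adjusted p = 0.00068. All 3 YAP-SY tumors lay above the highest YAP-S tumor.

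Cyp3a25, Cyp3a59 and Cyp3a57 rose further than the others of the subfamily in their point estimates. Cyp3a25 had 847, 2074 and 1124 CPM in the YAP-SY CCA tumors, against 337, 294 and 181 CPM in the YAP-S CCA tumors (ENSMUSG00000029630, chr5:145977194-146009618, minus strand), a log2 fold change of 2.32 ± 0.37 (SE) at adjusted p = 0.000675. Cyp3a59 had 84.9, 164 and 94.6 CPM in the YAP-SY CCA tumors, against 20.8, 22.4 and 14.8 CPM in the YAP-S CCA tumors (ENSMUSG00000061292, chr5:146079258-146113285, plus strand), with a log2 fold change of 2.56 ± 0.33 at adjusted p = 0.00021, the smallest p in families 1 to 3. Tumor 6 was the highest in both genes. About 25% of the 50-base stretches of Cyp3a25 recur in Cyp3a59, so their counts are not fully separate. Cyp3a57 was scarce, at 71 counts over the 3 YAP-SY CCA tumors and 4 over the 3 YAP-S CCA tumors, so its fitted log2 fold change of 5.08 ± 0.81 rests on a few counts, though it kept its call in each leave-out.

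Promoters of these 3 genes are shown because the genes rose furthest and their sequences are near copies, next to 2 from the Cyp3a11 side of the subfamily. Each runs from 250 bases before to 50 bases after the start of the gene (RefSeq, GRCm38.p6), 5′ to 3′. In the first 3, capitals mark stretches of at least 20 bases found in all 3 promoters. In the last 2, capitals mark a match to the forkhead (FOXA) motif TGTTTAC. They lie at chr5:146079008-146079307 (plus strand), chr5:146009568-146009867 (minus), chr5:145345019-145345318 (plus), chr5:145879805-145880104 (minus) and chr5:145469674-145469973 (minus).
Cyp3a59: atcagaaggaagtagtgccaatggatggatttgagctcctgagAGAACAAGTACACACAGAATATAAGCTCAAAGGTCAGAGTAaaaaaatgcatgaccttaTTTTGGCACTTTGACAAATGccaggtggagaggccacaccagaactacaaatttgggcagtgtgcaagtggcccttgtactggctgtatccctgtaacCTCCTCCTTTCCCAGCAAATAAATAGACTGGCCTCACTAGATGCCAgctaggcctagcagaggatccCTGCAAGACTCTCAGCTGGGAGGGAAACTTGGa
Cyp3a25: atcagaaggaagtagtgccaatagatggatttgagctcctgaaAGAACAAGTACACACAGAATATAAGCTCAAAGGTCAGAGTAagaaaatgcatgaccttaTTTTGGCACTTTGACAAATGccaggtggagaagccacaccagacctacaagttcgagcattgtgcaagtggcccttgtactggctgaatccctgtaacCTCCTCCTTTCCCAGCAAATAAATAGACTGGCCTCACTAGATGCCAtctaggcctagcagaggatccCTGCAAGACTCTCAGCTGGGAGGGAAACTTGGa
Cyp3a57: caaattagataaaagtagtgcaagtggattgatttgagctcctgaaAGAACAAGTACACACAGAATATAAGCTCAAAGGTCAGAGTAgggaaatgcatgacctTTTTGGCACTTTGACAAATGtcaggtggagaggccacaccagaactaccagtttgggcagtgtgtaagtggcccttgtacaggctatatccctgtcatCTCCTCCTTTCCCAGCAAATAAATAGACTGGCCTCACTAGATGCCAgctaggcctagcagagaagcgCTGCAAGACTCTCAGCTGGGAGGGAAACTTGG
Cyp3a11: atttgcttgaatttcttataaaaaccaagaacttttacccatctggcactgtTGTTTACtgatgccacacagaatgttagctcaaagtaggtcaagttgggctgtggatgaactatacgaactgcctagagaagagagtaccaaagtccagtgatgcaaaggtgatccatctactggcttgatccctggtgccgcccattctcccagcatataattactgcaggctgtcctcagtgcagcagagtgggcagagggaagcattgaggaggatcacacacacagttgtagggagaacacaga
Cyp3a16: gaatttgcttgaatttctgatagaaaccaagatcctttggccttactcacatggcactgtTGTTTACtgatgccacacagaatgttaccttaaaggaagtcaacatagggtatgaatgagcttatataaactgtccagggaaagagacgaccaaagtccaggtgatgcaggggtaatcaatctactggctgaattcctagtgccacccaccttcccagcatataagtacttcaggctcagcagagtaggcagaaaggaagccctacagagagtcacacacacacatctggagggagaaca

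By global alignment, 289 of 300 bases (96.3%) were identical between the Cyp3a25 and Cyp3a59 promoters, 275 between Cyp3a57 and Cyp3a59, and 270 between Cyp3a25 and Cyp3a57. A second set held Cyp3a16 and Cyp3a44, with 284 identical bases, and Cyp3a11, with 237 and 227 to those. Between the sets identities were 194 to 200 of 300 bases, and Cyp3a13 shared 184 to 194 with each of the other 6. Log2 fold changes in CCA tumors were 2.56 (Cyp3a59), 2.32 (Cyp3a25) and 5.08 (Cyp3a57) in the first set. In the second they were 1.54 (Cyp3a11), 1.47 (Cyp3a16) and 1.75 (Cyp3a44), and Cyp3a13 had 1.27. The first set was picked because its genes rose furthest, so its larger values follow from that choice. A link between promoter sequence and fold change was not tested. TGTTTAC, searched on both strands, starts 198 bases before the start of Cyp3a11 and 190 before that of Cyp3a16. It occurs in the promoters of 6 of the 50 P450 genes that had one in the table, and in 3.65% of all 32851 promoters. These 6 are Cyp2c38, Cyp2c39, Cyp2j5, Cyp3a11, Cyp3a16 and Cyp3a44. Near copies such as Cyp3a16 and Cyp3a44 are each counted, for this motif and the others, and enrichment was not tested. The other motifs searched on both strands were GTTAAT (the shorter HNF1 motif), found in 6 of the 50 and 7.1% of all promoters, and GCGTG (the AHR core), found in 9 of the 50 and 32.4% of all promoters. No match says only that these letters are not in this window.

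Cyp3a13, which is also expressed in intestine, was the lone member by promoter. It had 240.1, 279.8 and 183 CPM in YAP-SY CCA tumors, against 91.7, 121 and 77.9 CPM in YAP-S CCA tumors. No 50-base stretch of it recurs in another gene. Its log2 fold change was 1.27 ± 0.23 (SE) at adjusted p = 0.00139, without overlap between the groups. Cyp3a16 and Cyp3a44, which in mouse are mainly fetal or female forms, rose at low levels, at 2.04 to 34.5 CPM over the 6 CCA tumors.

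**Figure D3:**
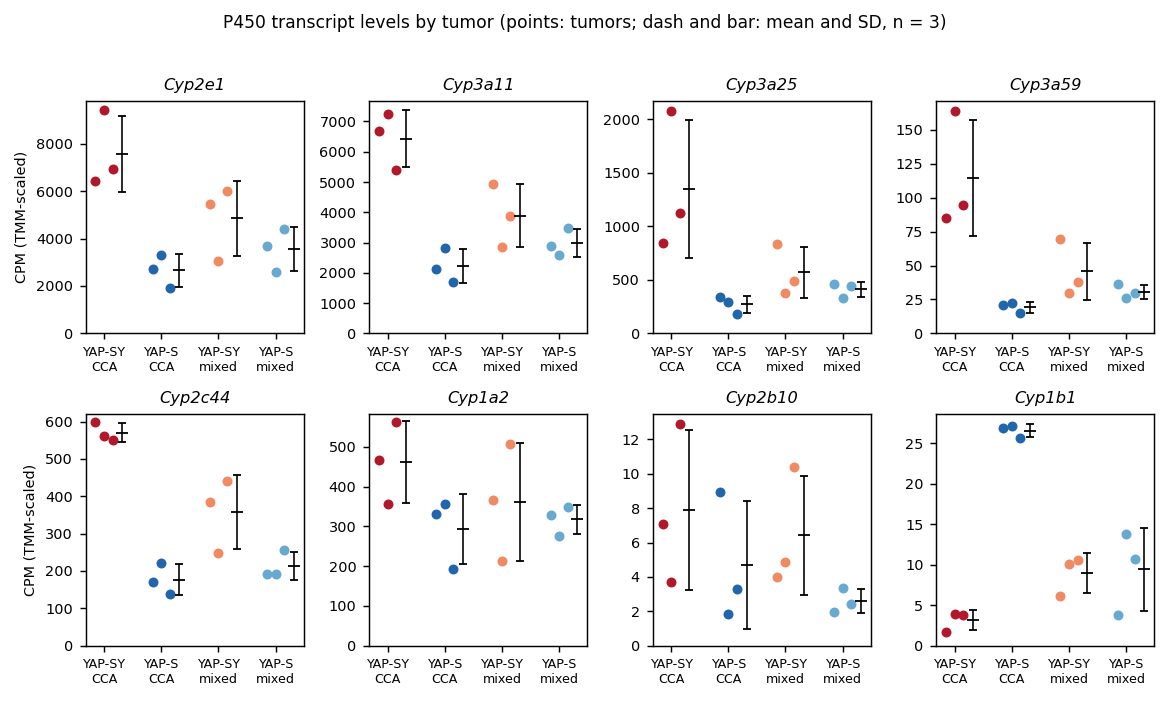
CPM (y axis, TMM-scaled) of 8 P450 genes in each tumor (points), with the mean and SD of each group of 3 (dash and bar), for YAP-SY CCA, YAP-S CCA, YAP-SY mixed and YAP-S mixed tumors (x axis). In the CCA tumors Cyp2e1, Cyp3a11, Cyp3a25, Cyp3a59 and Cyp2c44 lie higher in YAP-SY than in YAP-S without overlap and Cyp1b1 lies lower, while Cyp1a2 and Cyp2b10 overlap or touch.

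Of the Cyp2c subfamily, enzymes of drug and arachidonic acid oxidation, 12 of 15 rose in YAP-SY CCA tumors and 3 did not pass (Cyp2c55, Cyp2c65 and Cyp2c66), and the median was 1.34 on the log2 scale. The summed level was 5377 ± 1221 CPM in YAP-SY and 2292 ± 594 CPM in YAP-S (SD, n = 3 each). Cyp2c44 had 598, 562 and 549.7 CPM in the YAP-SY CCA tumors, against 171, 221 and 138 CPM in the YAP-S CCA tumors (ENSMUSG00000025197, chr19:44005022-44029247, minus strand). This epoxygenase, which shares no 50-base stretch with another gene, had a log2 fold change of 1.69 ± 0.23 (SE) at adjusted p = 0.00026. The groups did not overlap.

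Cyp2c29 had 1567, 2535 and 1900.0 CPM in the YAP-SY CCA tumors, against 1102, 1033 and 588 CPM in the YAP-S CCA tumors. This most abundant Cyp2c transcript, an enzyme inducible through CAR, had a log2 fold change of 1.14 ± 0.32 (SE) at adjusted p = 0.0143, and the call was lost without YAP-SY tumor 6, without YAP-S tumor 5 and under library size alone (0.58). Cyp2c50 had 725, 1163 and 889.7 CPM in the YAP-SY CCA tumors, against 444, 451 and 289 CPM in the YAP-S CCA tumors. Its log2 fold change of 1.23 ± 0.27 at adjusted p = 0.00368 stayed called in each leave-out, but 30.7% of its 50-base stretches recur elsewhere, mostly in Cyp2c37. Cyp2c70, which makes muricholic acids in mice, rose by 1.08 and lost its call without YAP-SY tumor 6 or YAP-S tumor 5 (0.77 at the lowest) and under library size alone. The near copies Cyp2c40, Cyp2c67, Cyp2c68 and Cyp2c69 also rose, by 1.07 to 1.47, though 43.3 to 72.1% of their stretches are shared, so their separate values are uncertain. The Cyp2c67 call was lost in 4 of 6 leave-outs (0.67 without YAP-SY tumor 6) and under library size alone.

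Cyp2e1, the lone Cyp2e gene, rose as well. It had 6423, 9409 and 6913 CPM in the YAP-SY CCA tumors, against 2730.0, 3320.4 and 1912 CPM in the YAP-S CCA tumors (ENSMUSG00000025479, chr7:140763739-140774975, plus strand), a log2 fold change of 1.51 ± 0.30 (SE) at adjusted p = 0.00223. The lowest YAP-SY tumor lay above the highest YAP-S tumor, and the call held with library size alone (0.96). Among the Cyp2a genes, 3 of 4 rose. Cyp2a12 had 663, 929.8 and 824 CPM in the YAP-SY CCA tumors, against 332, 338 and 336 CPM in the YAP-S CCA tumors (ENSMUSG00000060407, chr7:27029090-27036807, plus strand); this bile acid and steroid hydroxylase had a log2 fold change of 1.26 ± 0.18 at adjusted p = 0.000373. The 3 YAP-S values stood within 331.8 to 337.8 CPM, and the groups did not overlap.

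Cyp2a5 had 248, 469 and 521 CPM in the YAP-SY CCA tumors, against 193, 172 and 168 CPM in the YAP-S CCA tumors. The coumarin hydroxylase Cyp2a5 thus lay higher in all 3 YAP-SY tumors, with a log2 fold change of 1.22 ± 0.32 (SE) at adjusted p = 0.00968, a call that was lost under library size alone (0.65). Cyp2a22 rose by 1.46, but lost its call without YAP-SY tumor 6 or YAP-S tumor 4 (1.19 at the lowest) and under library size alone, and 27.5% of the stretches of Cyp2a12 recur in it. Cyp2a4 had a log2 fold change of 1.68 ± 0.93 that did not pass at adjusted p = 0.172. Cyp2f2, an oxidase of naphthalene that in liver is periportal, had 1528, 1345 and 1556 CPM in YAP-SY CCA tumors, against 499, 746 and 462 CPM in YAP-S CCA tumors. It rose by 1.38 on the log2 scale at adjusted p = 0.00278. So both the pericentral Cyp2e1 and the periportal Cyp2f2 were higher.

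In the Cyp2d subfamily 6 of 8 genes rose (Cyp2d22 and Cyp2d40 did not pass), with a median log2 fold change of 0.97. Cyp2d9 had 1334, 1445 and 1655 CPM in the YAP-SY CCA tumors, against 729, 848 and 528 CPM in the YAP-S CCA tumors. This male-predominant testosterone hydroxylase had a log2 fold change of 1.07 ± 0.31 (SE) at adjusted p = 0.0148, and all YAP-SY tumors lay above all YAP-S tumors. Cyp2d10 had 613, 496 and 712 CPM in the YAP-SY CCA tumors, against 371, 367 and 279 CPM in the YAP-S CCA tumors. Its log2 fold change was 0.84 ± 0.24 at adjusted p = 0.0141, and 40.5% of its stretches recur elsewhere, mostly in Cyp2d11. The call of Cyp2d9 was lost without YAP-S tumor 5 (0.89), that of Cyp2d10 without YAP-S tumor 5 or YAP-SY tumor 8 (0.70 at the lowest), and both under library size alone (0.52 and 0.29). The Cyp2d26 call was lost in 5 of 6 leave-outs, all but that of YAP-SY tumor 1. With library size alone 3 of the 8 genes stayed called, with a median of 0.41.

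Of 5 Cyp2j genes tested, 3 rose, 1 fell and 1 did not pass. Cyp2j5 had 734, 1131 and 822 CPM in the YAP-SY CCA tumors, against 452, 449.7 and 383 CPM in the YAP-S CCA tumors; this epoxygenase of arachidonic acid had a log2 fold change of 1.07 ± 0.19 (SE) at adjusted p = 0.00109, and the groups did not overlap. Cyp2j6 had 98.8, 154 and 101 CPM in the YAP-SY CCA tumors, against 79.7, 88.7 and 82.9 CPM in the YAP-S CCA tumors. Its log2 fold change was 0.49 ± 0.17 at adjusted p = 0.0336. It was 0.25 and lost its call without YAP-SY tumor 6, and it lost the call also without YAP-S tumor 3, 4 or 5. Under library size alone it turned to -0.08, where the median of all genes was -0.56. Cyp2j13 went the other way. Cyp2j13 had 0.136, 0.028 and 0 CPM in the YAP-SY CCA tumors, against 0.858, 1.18 and 0.749 CPM in the YAP-S CCA tumors, and its log2 fold change of -3.95 ± 1.10 at adjusted p = 0.0133 rested on 7 counts over the YAP-SY tumors and 218 over the YAP-S tumors. Without YAP-SY tumor 6 it missed the threshold.

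No gene of the Cyp1 family passed as higher with edgeR's quasi-likelihood test. Cyp1a2 had 467, 356 and 563 CPM in the YAP-SY CCA tumors, against 332, 356 and 193 CPM in the YAP-S CCA tumors. Cyp1a2, the caffeine-oxidising target of AHR, had a log2 fold change of 0.65 ± 0.30 (SE) that did not pass at adjusted p = 0.104, and the lowest YAP-SY and the highest YAP-S tumor both stood at 355.8 CPM. Cyp1a1 had 2.45, 1.2 and 2.56 CPM in the YAP-SY CCA tumors, against 1.03, 0.943 and 0.726 CPM in the YAP-S CCA tumors. This AHR target was scarce in tumors, with a log2 fold change of 1.19 ± 0.51 at adjusted p = 0.0814, although the groups did not overlap. Other tools did call them: Cyp1a1 at adjusted p = 0.0499 with DESeq2, 0.00762 with limma-voom and 0.0429 in edgeR with only the compared groups, and Cyp1a2 at 0.00588 with limma-voom. In the other settings run, each missed the threshold.

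Cyp1b1 had 1.7, 3.94 and 3.76 CPM in the YAP-SY CCA tumors, against 26.9, 27.1 and 25.6 CPM in the YAP-S CCA tumors (ENSMUSG00000024087, chr17:79706953-79715041, minus strand). Cyp1b1, an estradiol hydroxylase that is made mostly outside hepatocytes, fell by 3.09 ± 0.44 (SE) on the log2 scale at adjusted p = 0.000329, the opposite of most members. Its YAP-S values lay within 25.6 to 27.1 CPM, all above the YAP-SY values, and the call held under every setting run (-3.29 to -2.78 with 1 tumor left out). Fibroblast and stellate markers moved with it: their summed level was 428 to 603 CPM in YAP-SY CCA tumors, against 1864 to 2354 CPM in YAP-S CCA tumors, and 7 of 8 of them fell, led by Acta2 (smooth muscle actin) with -2.65 ± 0.25 (SE) at adjusted p = 8.84e-05. Bile duct markers (10 of 12) and white blood cell markers (5 of 6) fell as well. In SB1 cells, scaled apart, Cyp1b1 had 1073 to 1260 CPM. The part of any of these cell types in the result was not tested.

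Cyp2b genes, targets of CAR, gave no call in the fit of all tumors. Cyp2b10 had 7.07, 3.69 and 12.9 CPM in the YAP-SY CCA tumors, against 8.92, 1.86 and 3.28 CPM in the YAP-S CCA tumors. The groups overlapped, and the log2 fold change of 0.74 ± 0.57 (SE) had an adjusted p of 0.321; without YAP-S tumor 3 it was 1.60 and passed (adjusted p = 0.0437), and without YAP-SY tumor 8 it was 0.19. Cyp2b9, mainly a female form in mouse, had 0, 0 and 0.696 CPM in YAP-SY CCA tumors, against 0.293, 0.163 and 0.0468 CPM in YAP-S CCA tumors, at 25 and 45 counts in all. Its whole YAP-SY signal came from tumor 8, and without that tumor the log2 fold change of 0.38 turned to -6.45. Of the single-gene subfamilies, Cyp2g1, Cyp2r1 (a vitamin D hydroxylase) and Cyp2u1 (a fatty acid hydroxylase) rose by 1.29 to 1.80, while Cyp2s1, found mainly in epithelia outside the liver, had -1.24 and did not pass at adjusted p = 0.257. The Cyp2g1 call was lost without YAP-SY tumor 6 or 8 or YAP-S tumor 3 or 5 (1.35 at the lowest), and those of Cyp2g1 and Cyp2u1 under library size alone.

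In mixed tumors no P450 gene passed for YAP-SY against YAP-S with edgeR's quasi-likelihood test, nor did any other gene (0% of those tested). An unadjusted p under 0.05 was reached by 7 of the 50, beside 3.01% of all genes. DESeq2 and limma-voom also called 0 of the 50, beside 11 and 0 of all genes tested. The median log2 fold change was 0.23, beside 0.02 over all genes, and the groups did not overlap for 8 genes, all higher in YAP-SY, beside 4.3% of all genes that lay higher and 4.05% that lay lower (8.35% in either direction). That median was 0.53 without YAP-SY tumor 5 (16 genes with an unadjusted p under 0.05), 0.05 without YAP-SY tumor 9 and 0.15 without YAP-SY tumor 3, and 4 genes had an unadjusted p under 0.05 without YAP-S tumor 2. Cyp2e1 had 5449.5, 3070.3 and 6015 CPM in the YAP-SY mixed tumors, against 3702, 2592 and 4418 CPM in the YAP-S mixed tumors. Cyp3a11 had 4928, 2841 and 3891 CPM in the YAP-SY mixed tumors, against 2896, 2598 and 3494 CPM in the YAP-S mixed tumors. YAP-SY mixed tumor 5 held the lowest value of its group in both. It also had the highest summed level of bile duct markers of all 12 tumors, 16559.6 CPM, but abundant genes weigh most in that sum. Single markers went either way: Krt19 had 3.94 CPM in this tumor, against 37.6 and 43.2 CPM in YAP-SY mixed tumors 3 and 9. Sox9 had 65.8 CPM, against 35.6 and 23.9 CPM in those.

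Among the mixed tumors, Cyp2a5 had 295, 242 and 545 CPM in YAP-SY and 229, 148 and 166 CPM in YAP-S. Cyp2b10 had 4.02, 4.88 and 10.4 CPM in YAP-SY and 1.98, 3.38 and 2.43 CPM in YAP-S. Both pairs of groups stood apart, with log2 fold changes of 1.0 ± 0.32 and 1.31 ± 0.58 (SE), but neither passed (adjusted p = 0.999 for both). Cyp1b1 had 6.15, 10.1 and 10.6 CPM in the YAP-SY mixed tumors, against 3.82, 13.8 and 10.7 CPM in the YAP-S mixed tumors. These overlapped, and its log2 fold change was -0.07 ± 0.40.

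The YAP-SY effect differed between histologies for 14 of the 50 genes. The log2 fold change was higher in CCA than in mixed tumors for 13 of them and lower for 1 (Cyp1b1). Over all genes 15.2% differed, 5.02% upward and 10.2% downward. At an unadjusted p under 0.05 there were 27 of 50, beside 32.2% of all genes. The median difference, CCA minus mixed, was 0.92 on the log2 scale, beside 0.01 over all genes. Cyp1b1 had a difference of -3.01 ± 0.58 (SE) at adjusted p = 0.00774. Cyp3a13 had 1.60 ± 0.33 at adjusted p = 0.00983, Cyp2a12 1.18 ± 0.26 at adjusted p = 0.0122, and Cyp3a59 1.99 ± 0.45 at adjusted p = 0.0141. Of the 14, these 4 kept the call whichever of the 12 tumors was left out. With library size alone 6 genes were called, 4 upward and 2 downward, 5 of them among the 14, and Cyp2a12 was not (0.67). That scaling moved the median of all genes to -0.51, with 150 genes upward and 4180 downward. Leaving out 1 of 6 tumors (CCA: YAP-SY 6, YAP-S 3, YAP-S 5; mixed: YAP-SY 5, YAP-S 2, YAP-S 9) gave 5 or 6 calls, of which 5 or 6 were among the 14.

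For Cyp2e1 the difference was 1.07 ± 0.42 (SE) and missed the threshold at adjusted p = 0.0983. By subfamily, 5 of 7 Cyp3a genes, 4 of 15 Cyp2c genes, 1 of 8 Cyp2d genes, 1 of 4 Cyp2a genes, 1 of 5 Cyp2j genes and Cyp2f2 differed upward.

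Between histologies within a model, few P450 genes passed. In YAP-SY, CCA against mixed tumors gave 1 call of 50, Cyp3a59, where 2.90% of all genes were called (0.207% higher and 2.7% lower). Its log2 fold change was 1.33 ± 0.32 (SE) at adjusted p = 0.0452, from 84.9, 164 and 94.6 CPM in CCA tumors, against 69.5, 29.6 and 38 CPM in mixed tumors. The groups did not overlap, and the call was lost in 5 of 6 leave-outs, all but the one without YAP-SY mixed tumor 3 (0.98 at the lowest), with limma-voom and with only the compared groups fitted. The CCA tumors lay wholly above for 12 of the 50 and wholly below for 2, beside 7.99% and 12.1% of all genes (20.1% in either direction), and 14 had an unadjusted p under 0.05, beside 21.6%. The members' median log2 fold change was 0.39, beside -0.01 over all genes. Without YAP-SY mixed tumor 9 it was 0.66, with 25 genes at an unadjusted p under 0.05. It was 0.21 without YAP-SY mixed tumor 5 and 0.11 under library size alone.

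In YAP-S, CCA against mixed tumors gave no call with edgeR's quasi-likelihood test, for P450 genes or any others (0%). At an unadjusted p under 0.05 there were 15 of 50, beside 19.8% of all genes. DESeq2 called 10 of the 50 and limma-voom 19, beside 1513 and 3609 of all 18318 genes. Here the median log2 fold change was -0.45, and 44 of 50 estimates were below 0; the median was -0.25 without YAP-S CCA tumor 5 and -0.24 under library size alone. CCA tumors lay wholly below mixed tumors for 18 genes and wholly above for 1 (Cyp1b1), beside 17.6% and 20.2% of all genes (37.8% in either direction). With library size alone the median of all genes was 0.20 here and -0.30 in YAP-SY. That scaling called 2 and 3 members, beside 711 and 2006 of all genes. This comparison and those above share groups, so their values are not separate evidence: the YAP-S CCA tumors held the lowest and the YAP-SY CCA tumors the highest group means of Cyp2e1, Cyp3a11 and Cyp2c44.

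Shares within the P450 pool are given as a description. Cyp3a genes held 31.4, 29.6 and 25.5% of all P450 family 1 to 3 counts in YAP-SY CCA tumors, against 22.6, 24.6 and 23.6% in YAP-S CCA tumors. For Cyp2e1 the shares were 25.7, 28.4 and 25.8% in YAP-SY CCA tumors and 23.8, 25 and 22.8% in YAP-S CCA tumors. Cyp2d genes held 10.6, 8.33 and 12.7% in YAP-SY CCA tumors, against 14.4, 13.3 and 14.2% in YAP-S CCA tumors. Cyp1a genes held 1.87, 1.08 and 2.11% in YAP-SY CCA tumors, against 2.9, 2.69 and 2.31% in YAP-S CCA tumors. In the CCA tumors the Cyp3a and Cyp2e1 shares were higher and the Cyp2d and Cyp1a shares lower in YAP-SY without overlap. Cyp2j genes also separated, at 3.41, 3.96 and 3.54% in YAP-SY and 4.73, 4.14 and 5.68% in YAP-S, while Cyp2c genes overlapped, at 17.2, 20.2 and 19.2% in YAP-SY and 22.1, 20.5 and 19.3% in YAP-S. In mixed tumors the Cyp3a shares overlapped, at 28.7, 27 and 21.1% in YAP-SY and 23.9, 25.6 and 25.3% in YAP-S. With 3 against 3 tumors no exact test could go below 0.1.

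Hepatocyte markers moved the same way. Of 15 measured, 12 rose and none fell in YAP-SY CCA against YAP-S CCA tumors, beside 18.3% and 20.8% of all genes. The markers' median log2 fold change was 0.93, and 7 of them rose with library size alone. Apob, the smallest p among them, rose by 1.56 ± 0.20 (SE) at adjusted p = 0.000199. The summed hepatocyte markers had 157501 to 174131 CPM in YAP-SY CCA tumors, 58002 to 72631 CPM in YAP-S CCA tumors, 98963 to 128922 CPM in YAP-SY mixed tumors and 97538 to 105308 CPM in YAP-S mixed tumors. Set against that sum, P450 transcripts of families 1 to 3 came to 15.1, 19 and 17% in YAP-SY CCA tumors and 16.3, 18.3 and 14.4% in YAP-S CCA tumors. Those ranges overlapped. For Cyp3a the same ratio was 4.75, 5.63 and 4.33% in YAP-SY CCA tumors and 3.69, 4.5 and 3.41% in YAP-S CCA tumors, and these overlapped too. Cyp1b1 stood apart at 0.00103, 0.00226 and 0.00238% in YAP-SY CCA tumors and 0.0383, 0.0373 and 0.0441% in YAP-S CCA tumors. Cyp2j genes also lay lower, by a narrow gap, at 0.516, 0.755 and 0.6% in YAP-SY and 0.773, 0.757 and 0.82% in YAP-S. Albumin weighs heavily in the summed hepatocyte markers, with 103052 of 165502 CPM in YAP-SY CCA tumor 1.

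Bile duct markers went down: 10 of 12 fell and none rose, beside 20.8% of all genes that fell and 18.3% that rose. The markers' median log2 fold change was -2.17, and without YAP-SY tumor 6, 6 of 12 fell. Cd24a, the smallest p among them, fell by 2.98 ± 0.37 (SE) at adjusted p = 0.000191. Their summed level was 2792 to 4245 CPM in YAP-SY CCA tumors, 7702 to 11029 CPM in YAP-S CCA tumors, 4378 to 16559.6 CPM in YAP-SY mixed tumors and 9591 to 10300.1 CPM in YAP-S mixed tumors. White blood cell markers fell for 5 of 6 measured (3 of 6 without YAP-SY tumor 6, YAP-S tumor 4 or YAP-S tumor 5), with sums of 128 to 177 CPM in YAP-SY CCA tumors, against 195 to 536 CPM in YAP-S CCA tumors. Cd68, a macrophage marker, had the smallest p of these, at -0.89 ± 0.24 (SE) and adjusted p = 0.0109. The part of these cell types in the P450 result was not tested.

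Partners of the P450 reaction had a smaller median change. Of 14 genes of electron transfer and heme supply, 8 rose and none fell in YAP-SY CCA tumors (median 0.59). Over all genes 18.3% rose and 20.8% fell. Under library size alone 2 of the 14 rose and 2 fell (median 0.04), where the median of all genes was -0.56. Fech, which inserts iron to complete heme, had 221 ± 32.4 CPM in YAP-SY CCA and 125 ± 17.9 CPM in YAP-S CCA tumors (SD, n = 3 each), a log2 fold change of 0.82 ± 0.15 (SE) at adjusted p = 0.00112. Por, the oxidoreductase that feeds electrons to all these enzymes, had 127, 79.6 and 182 CPM in YAP-SY CCA tumors, against 108, 92.1 and 62 CPM in YAP-S CCA tumors. Those overlapped, and the log2 fold change of 0.57 did not pass (adjusted p = 0.189). Alas1, the first enzyme of heme synthesis, had 691, 127 and 243 CPM in YAP-SY CCA tumors, against 168, 125 and 278 CPM in YAP-S CCA tumors. It did not pass (adjusted p = 0.29), and its log2 fold change of 0.90 turned to -0.04 without YAP-SY tumor 1.

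Of 24 regulators, 10 rose and none fell (median 0.45), beside 18.3% of all genes that rose and 20.8% that fell (39.1% in either direction). Library size alone gave 5 higher and 4 lower (median -0.11), beside 760 and 8064 of all 18318 genes (median -0.56). The regulators' median was 0.68 without YAP-SY tumor 6. HNF4A's gene Hnf4a had 846, 624 and 699 CPM in YAP-SY CCA tumors, against 338, 396 and 285 CPM in YAP-S CCA tumors, a log2 fold change of 1.09 ± 0.20 (SE) at adjusted p = 0.00143, and the groups did not overlap. The CAR gene Nr1i3 had 117, 316 and 249 CPM in YAP-SY CCA tumors, against 86.2, 136 and 64 CPM in YAP-S CCA tumors, with 1.25 ± 0.39 at adjusted p = 0.024, and here the groups overlapped. The PXR gene Nr1i2 had 70.9, 81.7 and 71.8 CPM in YAP-SY CCA tumors, against 48.7, 49.7 and 35.6 CPM in YAP-S CCA tumors, with 0.74 ± 0.18 at adjusted p = 0.00692. Calls of both receptors were lost under library size alone (0.69 for Nr1i3 and 0.18 for Nr1i2), and that of Nr1i3 also without YAP-SY tumor 6 or 8 or YAP-S tumor 3 or 5 (0.94 at the lowest). Nr1h4, which encodes the bile acid receptor FXR, had the smallest p of the list, with 1.07 ± 0.14 at adjusted p = 0.000247.

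The AHR gene Ahr had 42.9, 63.2 and 54.7 CPM in YAP-SY CCA tumors, against 73.3, 51 and 33.4 CPM in YAP-S CCA tumors. Its log2 fold change was 0.03 ± 0.25 (SE) at adjusted p = 0.942. It turned negative under library size alone (-0.53), where the median of all genes was -0.56. Of 18 genes outside the P450s that respond to CAR, PXR or AHR, 11 rose and 1 fell (median 0.64), beside 18.3% and 20.8% of all genes. Under library size alone 5 rose and 1 fell, beside 760 and 8064 of all 18318 genes. Ugt2b34, a glucuronidation enzyme, was the smallest p, with 884 ± 84.2 CPM in YAP-SY CCA and 373 ± 3.77 CPM in YAP-S CCA tumors (SD, n = 3 each) and 1.25 ± 0.18 at adjusted p = 0.000375. The gene that fell was Gstm2, a glutathione transferase, with -0.55 ± 0.17 at adjusted p = 0.0248.

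The effect of YAP-SY differed between CCA and mixed tumors for 4 of 24 regulators, led by Hnf4a at 1.21 ± 0.28 (SE, adjusted p = 0.0165), 3 of 18 receptor targets, led by Ugt2b34 at 1.11 ± 0.25 (adjusted p = 0.0151), and 1 of 14 partner genes, Cyb5a, which encodes cytochrome b5, at 0.94 ± 0.28 (adjusted p = 0.0442). Over all genes 5.02% differed upward. In mixed tumors alone no gene of these lists passed with edgeR.

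Some genes of either lobular zone rose. Among non-P450 genes, 6 of 12 pericentral genes (median 0.63) and 7 of 12 periportal genes (median 1.17) rose and none fell. Over all genes 18.3% rose and 20.8% fell. Under library size alone 1 pericentral and 6 periportal genes rose, beside 760 higher and 8064 lower of all 18318 genes. The pericentral count was 1 without YAP-S tumor 5 and 2 without YAP-S tumor 3 or YAP-SY tumor 6. Glul, the glutamine synthetase of the innermost pericentral hepatocytes, had 1113, 1017 and 886 CPM in YAP-SY CCA tumors, against 627, 799.6 and 415 CPM in YAP-S CCA tumors at adjusted p = 0.0486, without overlap, and was no longer called under library size alone (0.16) or in 5 of 6 leave-outs, all but that of YAP-S tumor 4 (0.49 without YAP-S tumor 5). Slc1a2, a pericentral glutamate transporter, rose by 1.57 ± 0.37 (SE) at adjusted p = 0.00549, and Hsd17b13, a lipid droplet protein on the periportal list, by 1.39 ± 0.19 at adjusted p = 0.000261.

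In mouse liver some P450 genes differ by sex. Xist, the RNA of the inactive X, was at 0 to 0.364 CPM in the 12 tumors. The Y-linked gene Ddx3y had 88.7, 120.5 and 97.4 CPM in YAP-SY CCA tumors, against 44.4, 55 and 49.9 CPM in YAP-S CCA tumors. It ran from 59.1 to 84.2 CPM in mixed tumors. The Y-linked genes Uty (13.3 to 29.6 CPM), Kdm5d (27.1 to 53 CPM) and Eif2s3y (47.2 to 102.9 CPM) were also read in each of the 12 tumors. Of 5 sex-linked genes, 3 were called higher in YAP-SY CCA tumors (median 0.66), beside 18.3% of all genes. Under library size alone, which put the median of all genes at -0.56, none of the 5 was called (median 0.08). Their part in the P450 result was not tested. Of 10 tested P450 genes on a female-predominant list, Cyp3a41a included, 7 rose in YAP-SY CCA tumors (median 1.51; 7 and 0.94 under library size alone), summing to 112 to 209.5 CPM in YAP-SY and 44 to 62.7 CPM in YAP-S. All 4 male-predominant genes (Cyp2d9, Cyp2f2, Cyp2j5 and Cyp2u1) rose (median 1.21; 2 of 4 and 0.66 under library size alone), summing to 3609.6 to 4051 CPM in YAP-SY and 1378 to 2052 CPM in YAP-S. P450 genes of families 4 to 51 gave 11 of 18 higher and none lower (median 1.06), beside 18.3% and 20.8% of all genes. They were led by Cyp4a10, a fatty acid hydroxylase, with 2.05 ± 0.26 (SE) at adjusted p = 0.000198. Under library size alone 7 were higher and 1 lower (median 0.50), where the median of all genes was -0.56.

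In SB1 cells the P450 pool was small and of another kind. Total counts were 25341968 to 30541185 per sample, and P450 genes of families 1 to 3 held 0.123, 0.147 and 0.145% of them. Of the 58 genes, 22 were at 0 in all 3 samples, where 3 counts correspond to 0.0982 to 0.118 CPM, and 8 reached a mean of 1 CPM. Counting error alone is covered by that floor. Cyp1b1 led with 1073, 1260.2 and 1216 CPM, 83.6 to 87.1% of all counts in these families. Next came Cyp2s1 with 103, 149 and 176 CPM and Cyp2d22 with 29.2, 19.2 and 27.6 CPM. Cyp3a13 had 10.9, 6.67 and 18.7 CPM and Cyp2c68 9.86, 8.48 and 5.21 CPM. Cyp1a1 had 0.557, 15.5 and 6.13 CPM in samples 1, 2 and 3.

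The leading tumor P450s lay under 1 CPM in SB1 cells. Cyp2e1 had 0.262, 0.316 and 0.152 CPM, Cyp3a11 0.229, 0.237 and 0.038 CPM, Cyp2c29 0.196, 0.118 and 0.0761 CPM, and Cyp3a59 was at 0 in all 3 samples. Their levels stand in another table than the tumors', scaled apart, so no test was made between them. Krt19 had 1100.3, 1397 and 1789 CPM and Alb 1113, 612 and 613 CPM in the same samples.

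**Figure D4:**
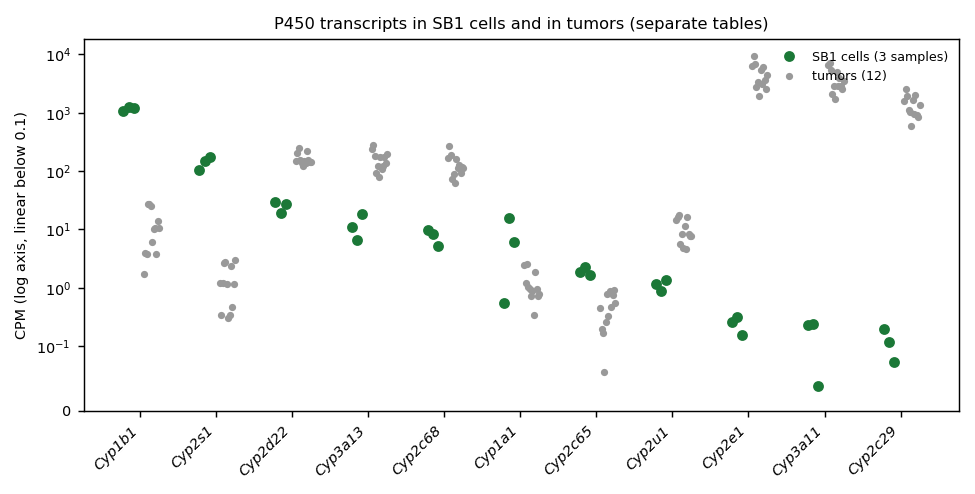
CPM (y axis, log scale that is linear below 0.1) of the 8 P450 genes averaging 1 CPM or more in SB1 cells and of 3 leading tumor P450 genes (x axis), in 3 SB1 samples (green) and 12 tumors (grey), scaled in separate tables. Cyp1b1 lies at 1073 to 1260 CPM in SB1 cells, and Cyp2e1, Cyp3a11 and Cyp2c29 lie under 1 CPM there.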

How the data were processed

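RNA of tumor nodules and cells was sequenced as poly(A)-selected libraries. The tumor table holds counts per gene that the authors corrected before they deposited it, in a way not given in the sources used here; the SB1 table holds raw counts as deposited. Per the submitters' processing notes, reads were aligned with STAR to mm10; versions, annotation and counting tool are not given in the sources used here. The gene lengths are another deposited column. Of the deposited SB1 counts, 3 further columns matched no sample label and were not used.

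Genes were filtered with filterByExpr by group, scaled by TMM, and the 12 tumors were fitted together (1 term per group, 8 residual degrees of freedom) in edgeR 4.0.16 under R 4.3.3 with glmQLFit and glmQLFTest; log2 fold changes and SE come from that fit of the authors' counts. Alternatives used DESeq2 1.42.0, limma 3.58.1 (voom), other scalings, no filter, the compared groups only and leaving out each tumor. The procedure was tested on simulated data in which as many genes were raised as lowered in the YAP-SY CCA tumors. Such balanced changes do not probe how the calls depend on scaling. Values per tumor are given for the 2 leading genes of each subfamily by mean CPM and for calls against the majority. They are also given for the 3 smallest adjusted p per comparison with a mean of at least 1 CPM. For most of these genes the values given are those of the CCA tumors only. Cyp3a57 and other members were chosen after seeing their values. The genes and lists were chosen with earlier results of these data known.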

Additional observations from a re-analysis of the deposited data

Results flagged for a closer look

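A test of the difference itself found the YAP-SY effect to differ between CCA and mixed tumors for 14 P450 genes (edgeR, adjusted p under 0.05). On the log2 scale, CCA minus mixed, the difference was -3.01 for Cyp1b1. In Cyp3a it was 4.18 for Cyp3a57, 1.99 for Cyp3a59, 1.84 for Cyp3a25, 1.60 for Cyp3a13 and 1.16 for Cyp3a11. In Cyp2c it was 1.46 for Cyp2c69, 1.38 for Cyp2c70, 1.17 for Cyp2c68 and 0.91 for Cyp2c37. It was 1.84 for Cyp2d34, 1.33 for Cyp2f2, 1.18 for Cyp2a12 and 0.89 for Cyp2j5. Each effect had the same sign as in CCA tumors alone. The calls of Cyp1b1, Cyp2a12, Cyp3a13 and Cyp3a59 held with any 1 tumor left out.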

How the results depend on the processing

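With 3 tumors per group, changes of low P450 genes and of near copies are uncertain. The counts were corrected in an unstated way. What this did to the spread between tumors, and so to the p-values of all genes, is not known. No paired analysis was possible because the groups compared share at most 1 tumor number. For YAP-SY against YAP-S in CCA, the 38 calls became 27 to 43 under other settings and 30 to 40 with 1 tumor left out. Over all genes these counts were 7171, 6368 to 8824 and 5121 to 6869. In mixed tumors each setting gave 0 of the P450 genes. For the difference between histologies, the count of 14 became 6 with library size alone, 23 with DESeq2, and 5 to 16 with 1 tumor left out. Over all genes these counts were 2788, 4330, 4231 and 1058 to 3077. For CCA against mixed tumors in YAP-S, a count of 0 became 1 with DESeq2 size factors and 2 with library size alone. It became 1 with upper quartile factors, 4 with no filter, 10 with DESeq2 and 19 with limma-voom. It was 12 with the compared groups only and 0 with 1 tumor left out. Over all genes, in the same order, the count of 0 became 117, 711, 137, 570, 1513, 3609, 2393 and 0. Genes tested were 18318 under most of these settings, 27708 with no filter and 17782 with the compared groups only. In YAP-SY, a count of 1 became 3 with library size alone, 4 with no filter, 10 with DESeq2 and 0 with limma-voom. It was 0 with the compared groups only and 0 to 3 with 1 tumor left out. Over all genes, in the same order, the count of 532 became 2006, 859, 1834, 16, 0 and 0 to 595. Both tumors whose column names start with Mut1 (YAP-SY CCA 8 and mixed 3) were also left out, an alternative chosen after seeing the data. This gave 3 for CCA against mixed in YAP-SY, 32 for YAP-SY against YAP-S in CCA and 11 for the difference. Over all genes these counts were 713, 6428 and 3297. Signs turned in YAP-SY against YAP-S in CCA for Cyp2b9 (library size alone -0.13; without YAP-SY tumor 8 -6.45; without YAP-S tumor 5 -0.03; without the Mut1 tumors -6.52), Cyp2j6 (library size alone -0.08), Alas1 (without YAP-SY tumor 1 -0.04), Ahr (library size alone -0.53; without YAP-SY tumor 6 -0.11; without YAP-S tumor 5 -0.22) and Xist (without YAP-SY tumor 1 0.60; without YAP-SY tumor 8 or the Mut1 tumors 0.42; without YAP-S tumor 5 0.44). With 1 tumor left out values ran from -6.45 to 1.01 (Cyp2b9), -0.04 to 1.29 (Alas1), -0.22 to 0.34 (Ahr) and -2.94 to 0.60 (Xist). Of the other single-gene values, 465 kept direction and side of the threshold, 67 lost and 6 gained a call. The cause was not tested.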
